A study of Drosophila melanogaster with 10 samples.

Results

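RNA was compared between brains of female Drosophila melanogaster larvae of the genotypes 12xWT and yw. The comparison was chosen by the labels for genotype and sex and took 5 of the 10 libraries: 3 of 12xWT females and 2 of yw females. All 10 libraries came from wandering larvae of the last instar, each from 25 dissected brains, and held polyA-selected RNA of a stranded mRNA kit counted without regard to strand. The series describes yw as 200xWT, so the genotypes are named for about 200 and for 12 copies of the repeat that carries the replication-dependent histone genes. The remaining 5 libraries, 3 of 12xWT males and 2 of yw males, entered the same model and are given beside the female values. The labels give no further allele, no age in hours and no treatment, and do not say whether libraries of a genotype came from separate crosses, so p-values measure the spread between these libraries. Each copy number came with a single genotype name, and copy number and any other difference between the 2 stocks cannot be told apart.

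In Drosophila the histones that package newly replicated DNA are made from a tandem array in which each repeat unit holds genes for H1, H2A, H2B, H3 and H4. Polycomb group proteins modify and compact nucleosomes and keep developmental genes, the Hox genes among them, silent outside their proper domains; trithorax group proteins act in the opposite sense. The larval brain holds dividing neuroblasts and optic lobe progenitors, their neurons and glia, and the ring gland, an endocrine organ that makes the moulting hormone ecdysone, lies on it and can be dissected with it. The study's title names the question: whether fewer histone genes disturb Polycomb function.

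The female libraries held 52.0 to 57.3 M counts, against up to 79.9 M over all 10. Of 16727 genes counted, 11146 were tested. Levels are given as CPM, that is counts divided by the library total in M, and 3 counts corresponded to 0.0523 to 0.0577 CPM in the female libraries. A gene is called when edgeR's quasi-likelihood test gave a Benjamini-Hochberg adjusted p under 0.05 over all genes tested, and errors of log2 fold changes (12xWT over yw) are standard errors. In a principal component analysis of the female libraries the first component held 64.4% of the variance and separated the genotypes. Brain markers were present in all 5 libraries: elav, which marks neurons, lay between 1424 and 1666 CPM, repo, which marks glia, between 106.6 and 129.5 CPM, and ase, which marks neuroblasts, between 72.3 and 87.5 CPM. In bulk RNA, fewer cells of a type and less RNA per cell cannot be told apart.

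The genotype labels were checked with w and y, the genes that give the yw stock its name. RNA of w, which encodes a transporter of eye pigment precursors, stood at 0.173 and 0.0890 CPM in yw females and at 236, 245 and 299 CPM in 12xWT females. That of y, needed for black cuticle pigment, stood at 0.807 and 0.819 against 3.36, 2.69 and 3.08 CPM. Both genes separated the genotypes without overlap, with log2 fold changes of 10.93 ± 0.29 for w (edgeR adjusted p = 3.17e-07) and 1.88 ± 0.19 for y (edgeR adjusted p = 8.47e-05).

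The sex labels were checked with RNA from the Y chromosome and from dosage compensation, and the libraries labelled 12xWT female stood apart from the yw females. Female flies normally carry no Y. Libraries are named by their labels throughout. The 45 Y-linked genes of the table reached 0 and 0.0356 CPM in yw females (0 and 2 counts) when summed, and 4.68, 18.2 and 4.35 CPM in the libraries labelled 12xWT female replicates 1, 2 and 3. Replicate 2 thus reached 84.3% of the mean of the 12xWT males, and replicates 1 and 3 reached 21.7% and 20.1%. The 12xWT males held 19.96 to 22.9 CPM, while the yw males held 0.157 and 0.276 CPM of the same genes. Without replicate 2 the difference between the female groups was 4.50 CPM in place of 9.06 CPM. An exact two-sided permutation test over the 5 female libraries gave p = 0.2, the smallest that 3 against 2 allows. Counts fell on 26 Y-linked genes in the 12xWT females and on 2 in the yw females. Most came from fdy, a protein-coding gene of the Y, at 0 and 0.0178 CPM in yw females and at 3.43, 12.9 and 3.19 CPM in 12xWT females. It stood at 14.0 to 16.6 CPM in 12xWT males, and at 0 and 0.0813 CPM in yw males. Y-linked RNA was thus low in yw of both sexes and is a weak check of the sex labels there. Of the 7 Y-linked genes tested 4 were called higher in 12xWT females (57.1% against 7.04% of all genes): fdy, CG40551, Su(Ste):CR42407 and Su(Ste):CR42426, the last pair being repeats whose transcripts silence Stellate in the male germline. The other 38 did not pass the filter. The 7 held at most 0.0813 CPM in any yw library and passed through the 12xWT libraries, so higher was in effect the only call open to them. All 7 were called higher in 12xWT males too. The 12xWT to yw ratio was 709 for fdy, with a 95% counting interval of 127 to 28000, and Su(Ste):CR42407 was at least 54.7-fold higher, taking 3 counts over both yw libraries as the floor. Replicate 2 carried much of both: without it the ratio for fdy was 358 (interval 63.9 to 14200) and the bound for Su(Ste):CR42407 was 25.9-fold. Calls for fdy, CG40551 and Su(Ste):CR42407 were lost without either yw library. With the female libraries fitted alone the calls for fdy and Su(Ste):CR42407 were lost too, and 1 Y-linked gene was called higher in place of 4.

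Dosage compensation in males rests on the noncoding RNAs roX1 and roX2 and on the protein MSL2, which paint the X chromosome, and Sxl, the switch gene of female fate, blocks MSL2 in females. roX2 stood at 0.0769 and 2.88 CPM in yw females, at 7.34, 15.1 and 9.29 CPM in 12xWT females, at 35.7 to 48.0 CPM in 12xWT males and at 65.3 and 67.8 CPM in yw males. roX1 stood at 308 and 446 CPM in yw females, at 585, 958 and 679 CPM in 12xWT females, at 1949 to 2535 CPM in 12xWT males and at 3139 and 2953 CPM in yw males. For both RNAs the female groups did not overlap and replicate 2 was the highest, yet neither was called by the main fit (roX1 log2 fold change 0.95 ± 0.25, edgeR adjusted p = 0.053, and roX2 2.78 ± 0.79, edgeR adjusted p = 0.0729). Of 18 alternatives run, 4 called roX1 and 2 called roX2. As a share of the 12xWT male mean, 12xWT female replicates 1, 2 and 3 held 17.4%, 36.0% and 22.1% of roX2 and 26.7%, 43.6% and 30.9% of roX1. Sxl RNA stood at 765 and 707 CPM in yw females and at 578, 534 and 609 CPM in 12xWT females (log2 fold change between females -0.38 ± 0.13, edgeR adjusted p = 0.114). In males it stood at 263 to 355 CPM in 12xWT and at 286 and 331 CPM in yw. The female difference of Sxl was called under 2 of the 18 alternatives. msl-2 stood at 60.8 and 66.6 CPM in yw females against 69.9, 84.8 and 72.3 CPM in 12xWT females (0.22 ± 0.10, edgeR adjusted p = 0.173). In males it stood at 119.5 to 139 CPM in 12xWT and at 157 and 152 CPM in yw. In each of these measures the 12xWT female libraries lay between the yw females and the 12xWT males, and replicate 2 lay nearest the males. Of 8 dosage compensation genes tested, 4 had a log2 fold change above 0 and 4 below. By edgeR 0 were called higher and 2 lower (25.0% against 5.57% of all genes). msl-3, 1 of these 2, stood at 37.0 and 35.8 CPM in yw females and at 27.6, 29.3 and 26.4 CPM in 12xWT females. In 12xWT males msl-3 stood at 29.5 to 30.6 CPM, above the 12xWT females. For roX1, roX2 and msl-2 the 12xWT males in turn lay below the yw males, and msl-2 was called there (-0.31, edgeR adjusted p = 0.0482). Percentages of the 12xWT male mean therefore depend on that choice of males. The part of this signal in the genotype differences below was not tested, and for the gene lists described, counts without 12xWT female replicate 2 are given where they differ.

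**Figure D1:**
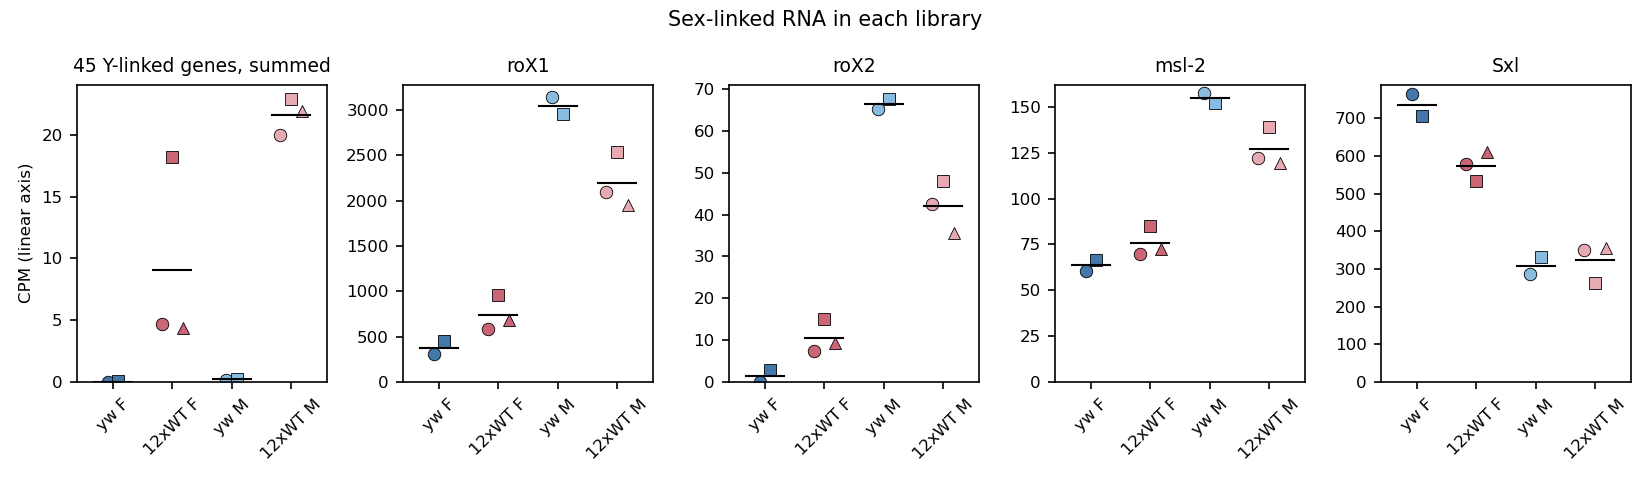
CPM on linear axes in each of the 10 libraries for the 45 Y-linked genes summed, roX1, roX2, msl-2 and Sxl; points are libraries (circle, square and triangle for replicates 1, 2 and 3), bars are group means, F is female and M is male. The 12xWT female libraries lie between the yw females and the 12xWT males, and 12xWT female replicate 2 is nearest the males, with 18.2 CPM of Y-linked RNA.

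Over all genes, 785 were called higher in 12xWT females and 621 lower, which is 7.04% and 5.57% of those tested and 12.6% in either direction. Most changes were small: the median log2 fold change of the called genes was 0.63 for those higher and -0.29 for those lower. At least 2-fold differences were called for 291 genes higher (2.61%) and 113 lower (1.01%). Of these, 21 and 11 reached a mean of 20 CPM in the higher group, so the larger differences were mostly among weakly expressed genes. The groups did not overlap for 42.7% of all genes tested, and for 785 of the higher and 619 of the lower calls. Scaling by library total alone, which moved the median of all genes by 0.02, gave 880 higher and 471 lower, a share of higher calls of 65.1% against 55.8%. The counts depended on the 2 yw libraries: without yw female replicate 1 they were 369 higher and 329 lower, and without replicate 2 they were 423 and 289, the lone yw library being taken to vary like the other groups. Without 12xWT female replicate 2 they were 654 and 487. Of 137 called genes that are named here or belong to the gene lists below, 57 lost their call without yw female replicate 1, 58 without yw female replicate 2 and 27 without 12xWT female replicate 2, and 67 kept it under every alternative run other than the 2-fold requirement.

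**Figure D2:**
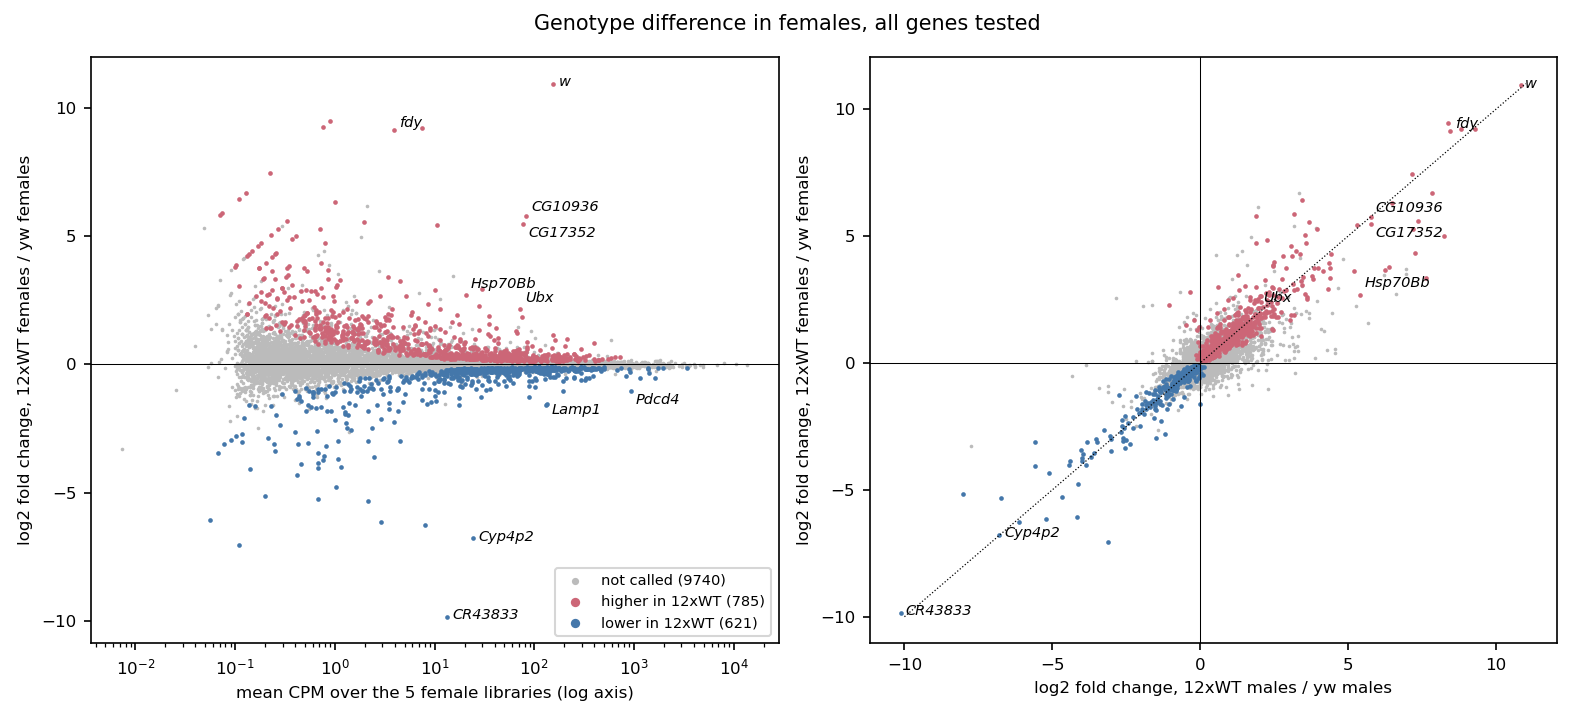
Left, log2 fold change of 12xWT over yw females against the mean CPM of the 5 female libraries (log axis) for the 11146 genes tested; right, the same fold change against that in males, with a dotted line where they are equal; genes called in females are coloured. The left panel shows 785 genes called higher and 621 lower with the largest fold changes among weakly expressed genes, and the right panel shows the called genes lying along the line of equal change.

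Among called genes that average 20 CPM or more where they are higher, the largest increases in 12xWT females, after that of w, were in 2 genes known only by computed names. CG10936 (2R:17604951-17639138, dm6) stood at 2.31 and 2.65 CPM in yw females and at 140.4, 129 and 142 CPM in 12xWT females (log2 fold change 5.76 ± 0.12, edgeR adjusted p = 1.97e-09). CG17352 (3L:8352355-8356296) stood at 2.83 and 2.85 against 122, 134 and 126 CPM (5.46 ± 0.09, edgeR adjusted p = 2.03e-11). In both the libraries of each genotype lay close together and the groups were far apart. CG31676 followed, at 5.65 and 6.23 CPM against 50.4, 40.9 and 46.8 CPM (2.93). After Hsp70Bb, described below, came the noncoding gene CR45473, at 8.36 and 8.44 CPM against 38.9, 42.7 and 41.5 CPM (2.26). Gadd45, a gene induced by stress and DNA damage, stood at 8.02 and 4.42 CPM in yw against 25.8, 21.2 and 24.1 CPM in 12xWT females (1.91 ± 0.23, edgeR adjusted p = 0.0014). Tep4, a thioester-containing protein of the immune system, had log2 fold change 1.87 and Ady43A 1.84. The call for Tep4 was lost without yw female replicate 1 (edgeR adjusted p = 0.0722) or replicate 2 (edgeR adjusted p = 0.0762).

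One heat shock gene was among the larger increases. Hsp70Bb, which encodes the inducible chaperone Hsp70, stood at 6.54 and 3.01 CPM in yw females and at 26.3, 24.7 and 42.3 CPM in 12xWT females (2.69 ± 0.43, edgeR adjusted p = 0.00823), and the call was lost when the female libraries were fitted alone (edgeR adjusted p = 0.0762). Its near-identical neighbours were not called: Hsp70Ba stood at 6.25 and 2.21 CPM against 3.59, 3.14 and 19.3 CPM, with overlapping groups, and reads from these copies are hard to assign. Of 17 heat shock genes tested Hsp70Bb was the 1 called, 5.88% against 7.04% of all genes called higher. The list median was 0.29 against -0.0021 over all genes. Replicate 3 of the 12xWT females was the highest library for Hsp68, at 184 CPM, the other 4 lying between 38.9 and 74.2 CPM.

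Among weakly expressed genes, several were near 0 in yw females and present in 12xWT females. CG18278 had 1 count in each yw library and 12.7, 12.5 and 12.3 CPM in 12xWT, a ratio of 676 with a 95% counting interval of 187 to 5590. The noncoding gene CR45214, at 0 in both yw libraries, was at least 46.2-fold higher and shares exon sequence with RIOK2. Ada1-1, which encodes a form of a subunit of the SAGA coactivator, was at 0 and 0.0356 against 1.80, 1.45 and 1.73 CPM, a ratio of 89.6 (interval 24.6 to 744). CG34138 stood at 0.423 and 0.374 against 16.0, 18.2 and 18.2 CPM (5.43), and mthl6, of the methuselah family of receptors, at 0.0769 and 0.0534 against 3.26, 4.08 and 2.26 CPM (5.56). CG18278 (with CG33470 and IM10), Ada1-1 (with CG18787) and CG34138 (with subdued) share exon sequence with other genes too. The mthl6 call was lost without yw female replicate 1 (edgeR adjusted p = 0.0676) or replicate 2 (edgeR adjusted p = 0.077).

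Among called genes that average 1 CPM or more in yw females and whose groups do not overlap, the deepest losses in 12xWT females were in the noncoding gene CR43833 and in 2 neighbouring cytochrome P450 genes. CR43833 stood at 33.2 and 34.0 CPM in yw against 0, 0.0872 and 0.0178 CPM in 12xWT females (-9.84 ± 0.30, edgeR adjusted p = 1.2e-07). It overlaps an end of Pdcd4, the homologue of a translation inhibitor, which stood at 1321 and 1336 against 652, 676 and 652 CPM (-1.03 ± 0.04, edgeR adjusted p = 8.6e-08), and unstranded counting cannot tell reads of such a pair apart. Cyp4p2 stood at 62.5 and 58.4 against 0.581, 0.419 and 0.678 CPM (-6.78 ± 0.11, edgeR adjusted p = 2.03e-11), and its next neighbour Cyp4p1 at 19.6 and 19.4 against 0.299, 0.244 and 0.232 CPM (-6.25). In neither P450 gene did any 12xWT library approach the yw level.

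Other abundant genes fell by less. Lamp1, a lysosomal membrane protein, stood at 211 and 227 CPM in yw against 77.2, 80.2 and 72.1 CPM in 12xWT females (-1.54 ± 0.05, edgeR adjusted p = 3.97e-09). CG10353 stood at 220.3 and 213 against 77.6, 72.4 and 70.7 CPM (-1.58), and Sec31, which encodes a coat protein of vesicles leaving the endoplasmic reticulum and shares exons with ana2 and CR45202, at 280 and 275 against 138, 136 and 138 CPM (-1.04). CG17684 (-1.59), NT5E-2 (-1.31), CG17163 (-1.28) and CG6357 (-1.27) made up the rest of the 10 largest decreases at 20 CPM or more. The call for CG17163 depended on single libraries: without any 1 of the 5 female libraries it was lost, with edgeR adjusted p from 0.0703 to 0.139. Weakly expressed losses included CG30002 (-6.14), CG32572 (-5.32), the gustatory receptor gene Gr8a (-4.77), CG18446 (-4.04), the homeobox gene vis (-4.01), the serpin gene Spn75F (-3.88) and CG10459, 39.8-fold lower with a counting interval of 18.9 to 100. Like Sec31, the genes NT5E-2, CG17163, CG32572, Gr8a and CG10459 share exons with other genes.

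**Figure D3:**
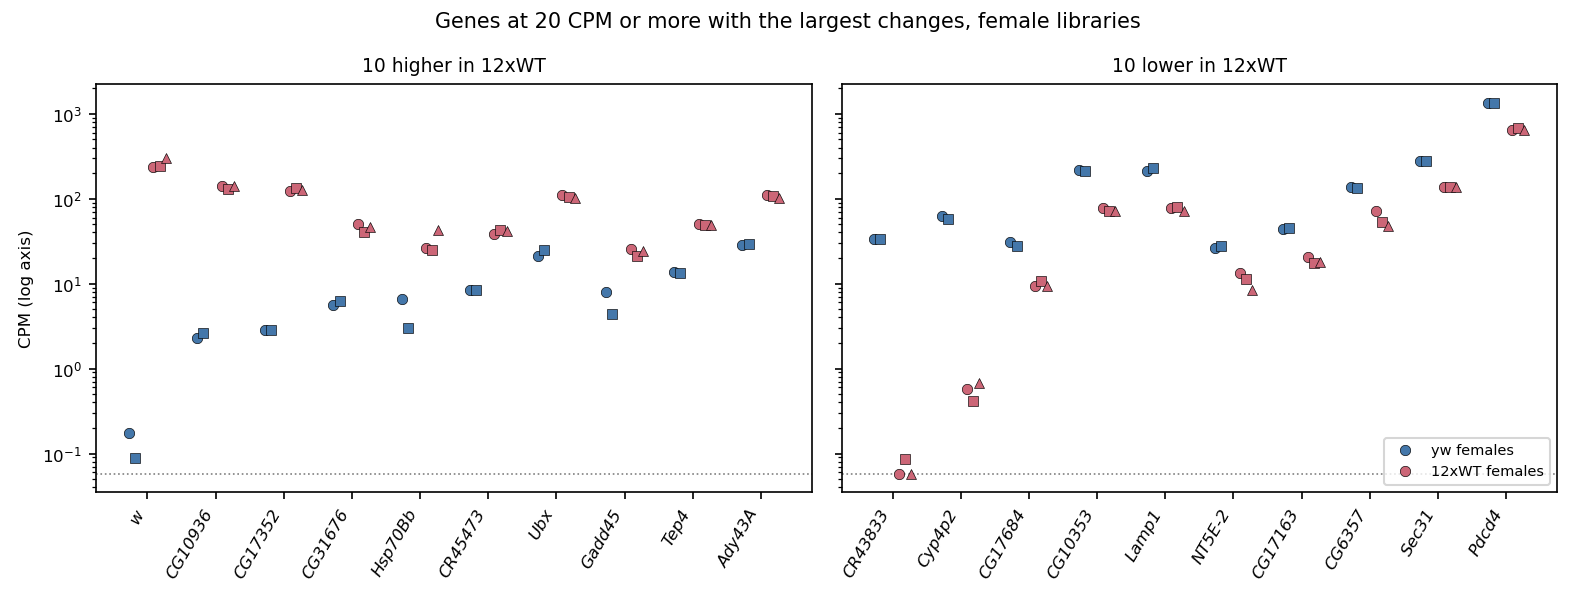
CPM (log axis) in each female library for the 10 genes with the largest increase and the 10 with the largest decrease among called genes that average 20 CPM or more where they are higher; blue is yw, red is 12xWT, and symbols mark replicates 1 to 3. Values under 3 counts are drawn at 0.0577 CPM, the dotted line. The groups do not overlap for any of the 20 genes, and w and CR43833 are the furthest apart.

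Among the 8 Hox genes, which give body segments their identity and are the classical targets of Polycomb repression, Ubx alone was called (12.5% against 7.04% of all genes called higher). Ubx (3R:16656623-16734426, minus strand) stood at 21.0 and 24.9 CPM in yw females and at 109, 103.9 and 102.0 CPM in 12xWT females (2.17 ± 0.07, edgeR adjusted p = 3.97e-09). The lowest 12xWT library was far above the higher yw library. Its neighbours of the bithorax complex, which specify the abdomen, did not pass the test: abd-A stood at 35.2 and 42.3 against 88.9, 50.5 and 45.9 CPM (0.65 ± 0.50, edgeR adjusted p = 0.472) and Abd-B at 7.75 and 8.10 against 19.4, 7.29 and 9.66 CPM (0.58 ± 0.66, edgeR adjusted p = 0.631). In both, 12xWT female replicate 1 was far above the other 2, and Abd-B overlapped between genotypes. Antp, of the thorax, stood at 75.6 and 86.4 against 84.1, 81.3 and 73.8 CPM, and lab, pb, Dfd and Scr, of the head and first thoracic segments, had log2 fold changes between -0.03 and 0.06.

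Other genes bound and repressed by Polycomb in many tissues, 70 transcription factor and signalling genes, held 1 call, pdm2, a POU factor of neuroblasts and wings, at 6.96 and 6.53 against 10.7, 8.69 and 11.1 CPM (0.57 ± 0.16, edgeR adjusted p = 0.0417). That is a share below the 7.04% of all genes called higher, and the list median was 0.06. Without 12xWT female replicate 2 the list also held 1 lower call. The pdm2 call was lost without yw female replicate 1 (edgeR adjusted p = 0.15), without yw female replicate 2 (edgeR adjusted p = 0.222) and without 12xWT female replicate 1 or 3.

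Of 26 genes for Polycomb group proteins, 3 were called lower and 0 higher by edgeR, with a median of -0.10 and 23 below 0. DESeq2 called 5 lower and 0 higher. At an unadjusted edgeR p under 0.05, 11 were lower and 1 higher, where 3003 of all 11146 genes passed in either direction. Asx, part of the complex that removes ubiquitin from H2A, stood at 206 and 198 CPM in yw against 167, 176 and 176 CPM in 12xWT females (-0.25 ± 0.04, edgeR adjusted p = 0.00307). ph-p, a subunit of Polycomb repressive complex 1, had log2 fold change -0.20 and Sfmbt, a partner of the DNA-binding protein Pho, -0.13. Leaving out yw female replicate 1 ended the calls for ph-p (edgeR adjusted p = 0.138) and Sfmbt (edgeR adjusted p = 0.137), and that for Sfmbt was lost without yw replicate 2 as well (edgeR adjusted p = 0.135) and without 12xWT female replicate 1 (0.081). Pc itself stood at -0.13 ± 0.05 (edgeR adjusted p = 0.162) and E(z), the H3K27 methyltransferase, at -0.08 (edgeR adjusted p = 0.209). Of 28 trithorax group genes, the bromodomain gene fs(1)h (-0.18) and the methyltransferase subunit gene wds (-0.16) were called lower, and neither call held without yw female replicate 1 (edgeR adjusted p = 0.295 and 0.0731) or 2, or without 12xWT female replicate 2. Of the 28, 26 had a log2 fold change below 0, and DESeq2 called 5 lower and 0 higher. At an unadjusted edgeR p under 0.05, 12 of the 28 were lower and 0 higher. Over all genes 5.57% were called lower, against which 3 of 26 and 2 of 28 are to be read.

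Histone RNA itself could scarcely be read. The 111 replication-dependent histone genes of the table, near-identical copies whose transcripts end in a stem-loop and not in polyA, held 12 counts over both yw female libraries and 0 over the 3 12xWT females. RNA was polyA-selected and the counting command does not ask for multiply placed reads; the part of either in these low counts was not tested. As sums they stood at 0.135 and 0.0890 CPM in yw females and at 0 in 12xWT females, under the floor of 3 counts in the latter. Variants made outside the array are polyadenylated and were well measured. Of 5 variant genes tested 2 were called lower, 40.0% against 5.57% of all genes. His2Av, the H2A variant, stood at 525 and 549 against 476, 499 and 480 CPM (-0.17 ± 0.05, edgeR adjusted p = 0.039), and His3.3B, a source of H3.3, at 3607 and 3602 against 3334, 3251 and 3230 CPM (-0.16 ± 0.05, edgeR adjusted p = 0.0406). The groups did not overlap for either, and both calls were lost without any 1 of the 5 female libraries (edgeR adjusted p between 0.0562 and 0.233). Of 23 genes that process histone transcripts or chaperone histones, asf1 (0.18), a chaperone of H3 and H4, and Lsm11 (0.56), a subunit of the U7 particle that cuts histone transcripts, were called higher, and Spt6 (-0.16), a histone chaperone of transcription, lower. That is 8.7% higher and 4.35% lower, against 7.04% and 5.57% of all genes. All 3 calls were lost without yw female replicate 1 (edgeR adjusted p = 0.14, 0.155 and 0.094) or 2, that of asf1 also without 12xWT female replicate 2 and that of Lsm11 without replicate 1 or 3.

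Of 16 neuron genes 3 were called lower and 1 higher, 18.8% and 6.25% against 5.57% and 7.04% of all genes, with a median of -0.08. para, the voltage-gated sodium channel, stood at 367 and 369 CPM in yw females and at 240.3, 268 and 234 CPM in 12xWT females (-0.60 ± 0.10, edgeR adjusted p = 0.00417). brp, a scaffold of the presynaptic active zone, stood at 1057 and 985 against 806, 869 and 882 CPM (-0.28 ± 0.07, edgeR adjusted p = 0.0153). VGlut, the vesicular glutamate transporter, had log2 fold change -0.19, and Snap25, of the vesicle fusion machinery, 0.18. Without yw female replicate 1 para alone remained called (brp edgeR adjusted p = 0.149, VGlut 0.0704, Snap25 0.0755), and without yw female replicate 2 the list held 2 lower calls. The pan-neuronal gene elav stood at 1666 and 1588 against 1424, 1586 and 1640 CPM, with overlapping groups.

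Serotonin, dopamine and octopamine genes held 4 calls among 19 tested, all lower, 21.1% against 5.57% of all genes, with a median of -0.08. Ddc, the decarboxylase of dopamine and serotonin synthesis, stood at 29.9 and 29.9 CPM in yw females and at 22.2, 16.8 and 18.7 CPM in 12xWT females (-0.66 ± 0.12, edgeR adjusted p = 0.00526). Tbh, which makes octopamine from tyramine, stood at 37.4 and 39.5 against 29.8, 28.7 and 26.7 CPM (-0.46 ± 0.07, edgeR adjusted p = 0.00184). In both genes each 12xWT library was below each yw library. Vmat, which loads monoamines into vesicles, stood at 177 and 168 against 137, 129 and 107 CPM (-0.50 ± 0.10, edgeR adjusted p = 0.0166), and Trh, the tryptophan hydroxylase of serotonin neurons, had -0.36. Summed over the list, RNA stood at 678 and 656 CPM in yw against 606, 589 and 551 CPM in 12xWT females, without overlap. Without yw female replicate 1 or 2 the list held 2 calls: Vmat (edgeR adjusted p = 0.123 and 0.0739) and Trh (0.117 and 0.205) were lost in both, and Trh also without 12xWT female replicate 2 or 3. Of 36 neuropeptide genes, 3 were called lower (8.33% against 5.57% of all genes), Ilp5 (-0.72), Hug (-0.29) and Dh31 (-0.18). None of these calls held without yw female replicate 2 or without 12xWT female replicate 2 (edgeR adjusted p = 0.111, 0.105 and 0.0897 in the latter). Of 9 nicotinic receptor subunit genes 0 were called by edgeR or by DESeq2, and 3 had an unadjusted edgeR p under 0.05 (2 higher, 1 lower); the list median was 0.09, and scaling by library size only called 2 of them higher.

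Glial genes were split: of 17 tested 2 were called higher and 2 lower, 11.8% each against 7.04% and 5.57% of all genes. alrm, of astrocytes, stood at 99.0 and 108 CPM in yw females and at 87.1, 75.2 and 75.4 CPM in 12xWT females (-0.41 ± 0.07, edgeR adjusted p = 0.00384), and wrapper, a surface protein of cortex and midline glia, at 123 and 133 against 110.6, 106.5 and 92.0 CPM (-0.34 ± 0.07, edgeR adjusted p = 0.00653). Indy, a citrate transporter, stood at 39.5 and 43.9 against 56.1, 58.9 and 56.6 CPM (0.43 ± 0.07, edgeR adjusted p = 0.00179), and loco, a regulator of G protein signalling, had 0.20. Calls for alrm (edgeR adjusted p = 0.0509), wrapper (0.0795) and loco (0.207) were lost without yw female replicate 2, and that for loco without any other female library too. repo stood at 119 and 129.5 against 120.1, 107 and 113 CPM. Among 16 neuroblast genes svp and klu were called lower (12.5% against 5.57%), by 0.18 and 0.20 on the log2 scale, and dpn and ase stood at -0.22 (edgeR adjusted p = 0.0676) and -0.21 (0.0745); klu lost its call without either yw library or without 12xWT replicate 1 or 2, and svp without yw female replicate 1 (edgeR adjusted p = 0.0743).

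Of 11 ring gland genes 1 was called higher, 9.09% against 7.04% of all genes, and 10 had a log2 fold change above 0. The enzymes that turn sterols into ecdysone did not pass the test: phm stood at 50.0 and 74.2 CPM in yw females and at 123, 133 and 127 CPM in 12xWT females (1.02 ± 0.49, edgeR adjusted p = 0.249), spok at 41.5 and 55.4 against 117, 133 and 116 CPM (1.31 ± 0.53, edgeR adjusted p = 0.174) and sad at 25.7 and 40.8 against 84.2, 102.5 and 88.98 CPM (1.44 ± 0.54, edgeR adjusted p = 0.147). In each of these genes the genotypes did not overlap, and yw female replicate 2 was above replicate 1. The list summed to 571 and 631 CPM in yw and to 858, 933 and 898 CPM in 12xWT females, and its median log2 fold change was 1.02. Npc1a, a sterol transporter also used elsewhere, was the 1 called (0.41 ± 0.10, edgeR adjusted p = 0.0369; 0.173 and 0.175 without yw female replicate 1 or 2, and 0.0904 without 12xWT female replicate 2), while with the female libraries fitted alone 7 of the 11 were called and DESeq2 called 3. Of 16 ecdysone response genes Eip63F-1 (0.65) was called higher, 6.25% against 7.04% of all genes. Its call was lost without yw female replicate 2 or 12xWT female replicate 1 or 3.

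RNA of tissues that lie beside the brain was present and varied between libraries of a genotype. Fat body genes summed to 1340 and 1273 CPM in yw and to 1526, 1407 and 1276 CPM in 12xWT females, and muscle genes to 1151 and 1146 against 1161, 1135 and 1066 CPM, both overlapping; of the 14 fat body genes 0 were called by edgeR or DESeq2 and 0 had an unadjusted edgeR p under 0.05, and of the 18 muscle genes 0 were called by edgeR, 2 by DESeq2, and 5 had an unadjusted p under 0.05, all higher. Of the muscle genes 15 had a log2 fold change above 0, with a median of 0.59, and the fat body median was 0.11. Tracheal genes summed to 197 and 211 against 304, 221 and 242 CPM without overlap. All 11 tracheal genes were above 0, with a median of 0.37; 0 were called by edgeR or DESeq2, 1 had an unadjusted edgeR p under 0.05, and 1 was called with the female libraries fitted alone. The larval serum protein gene Lsp2 ranged from 12.6 to 76.4 CPM within the 12xWT females. Haemocyte genes summed to 274 and 293 against 401, 344 and 304 CPM, and 4 of 16 were called higher (25.0% against 7.04% of all genes), with a median of 0.43. The count was 3 without 12xWT female replicate 2, 2 without yw female replicate 1 and 1 without yw female replicate 2. NimC1, a phagocytosis receptor of plasmatocytes, stood at 0.0385 and 0.107 against 1.32, 0.872 and 1.32 CPM (3.93 ± 0.50, edgeR adjusted p = 0.000397). crq, a scavenger receptor, had 0.25, PPO3, a prophenoloxidase, 0.61, and ush, a regulator of blood cell fate, 0.14, and these 3 calls were lost without yw female replicate 2 (edgeR adjusted p = 0.0649, 0.0626 and 0.143), that of ush without any other female library too. Hml, the usual haemocyte marker, stood at 3.40 and 2.24 against 24.2, 18.8 and 7.77 CPM (2.56, edgeR adjusted p = 0.193). The part of haemocytes in the differences of the next genes was not tested.

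Several genes of defence and of the cuticle stood higher in 12xWT females at low levels. Of 22 antimicrobial peptide genes 10 passed the filter on low counts, and AttB, IM23 and CecA2 were called higher, all under 1.1 CPM. These 3 of 10 are a share above the 7.04% of all genes called higher. AttB, an attacin, stood at 0.135 and 0.160 CPM in yw against 0.880, 1.06 and 1.05 CPM in 12xWT females (2.72 ± 0.33, edgeR adjusted p = 0.000283). Without yw female replicate 1 AttB was the 1 called, without 12xWT female replicate 2 there were 2 calls, and the whole list summed to at most 7.94 CPM. Of 123 cuticle protein genes 48 passed the filter and 7 were called higher, 14.6% against 7.04% of all genes. The count was 6 without 12xWT female replicate 2, and lower still without either yw female library. Cpr51A stood at 2.25 and 1.91 against 7.94, 8.49 and 9.45 CPM (2.03 ± 0.17, edgeR adjusted p = 2.13e-05) and Cpr78E at 0.154 and 0.196 against 2.61, 1.73 and 0.927 CPM (3.28 ± 0.52, edgeR adjusted p = 0.0022). Since the filter keeps a gene that is high in any group, these counts describe the genes that passed and not the lists.

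Detoxification genes changed in both directions. Of 83 cytochrome P450 genes 57 were tested, with 9 called higher and 10 lower, 15.8% and 17.5% against 7.04% and 5.57% of all genes. Besides Cyp4p1 and Cyp4p2, the remaining gene of that cluster, Cyp4p3, stood at 1.42 and 1.23 against 0.317, 0.157 and 0.196 CPM (-2.58 ± 0.42, edgeR adjusted p = 0.00244). Cyp6a20, linked to aggression in adult flies, stood at 0.0385 and 0.0890 against 0.792, 1.15 and 0.553 CPM (3.62 ± 0.47, edgeR adjusted p = 0.000508), and Cyp6a13 at 3.61 and 3.24 against 6.46, 5.86 and 6.01 CPM (0.81 ± 0.11, edgeR adjusted p = 0.000709). Among 28 glutathione transferase genes 4 were called higher and 2 lower, 14.3% and 7.14%. GstT3 stood at 7.86 and 7.92 against 22.5, 19.6 and 29.3 CPM (1.57 ± 0.18, edgeR adjusted p = 0.00103) and GstZ2, the lower call at the highest level, at 733 and 714 against 627, 631 and 646 CPM (-0.21 ± 0.04, edgeR adjusted p = 0.00679). The GstZ2 call was lost without yw female replicate 1 (edgeR adjusted p = 0.0785). Without yw female replicate 1 the P450 counts were 5 higher and 8 lower and the transferase counts 2 and 0, without yw female replicate 2 they were 7 and 8, and 3 and 1, and without 12xWT female replicate 2 they were 8 and 10, and 2 and 1.

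Of 89 cytosolic ribosomal protein genes RpS5b (0.49) was called higher and RpL18 (-0.45) lower, where 7.04% and 5.57% of all genes were, and the list median was 0.01. Of 72 mitochondrial ribosomal protein genes 1 was called higher (1.39%) and 6 lower (8.33%), with a median of -0.07. The lower calls came to 1 without yw female replicate 2 and to 4 with the female libraries fitted alone, and in both fits 0 were higher. geminin, the inhibitor of origin licensing, stood at 66.7 and 69.9 CPM in yw against 56.7, 60.1 and 53.7 CPM in 12xWT females (-0.29 ± 0.05, edgeR adjusted p = 0.0032). Together with DNApol-alpha50 (-0.29), the primase subunit, and Psf3 (0.31), of the GINS complex, it made 3 calls among 33 replication genes, 6.06% lower and 3.03% higher. Of 26 cyclin and mitosis genes ial, the Aurora B kinase, was the 1 called (3.85% lower), at 66.2 and 70.7 against 46.9, 49.7 and 47.9 CPM (-0.53 ± 0.05, edgeR adjusted p = 3.39e-05). mre11, a nuclease of double-strand break repair that overlaps Osi21, stood at 24.6 and 27.1 against 39.4, 38.1 and 34.9 CPM (0.51 ± 0.06, edgeR adjusted p = 0.000214). With Gadd45 and egr (0.19), the fly tumour necrosis factor, it made 3 of 24 genes of DNA damage and cell death called higher (12.5%), and skl (-0.23), a killer of the reaper family, was called lower (4.17%). Leaving out a yw female library ended the calls for egr and Psf3, for replicate 1 also skl (edgeR adjusted p = 0.108) and for replicate 2 also DNApol-alpha50 (0.136), and that for egr was lost without 12xWT female replicate 2 or 3 as well. Without 12xWT female replicate 2 the replication list held 6 lower calls in place of 2 and the mitosis list 3 in place of 1, and the damage list 2 higher and 2 lower.

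**Figure D4:**
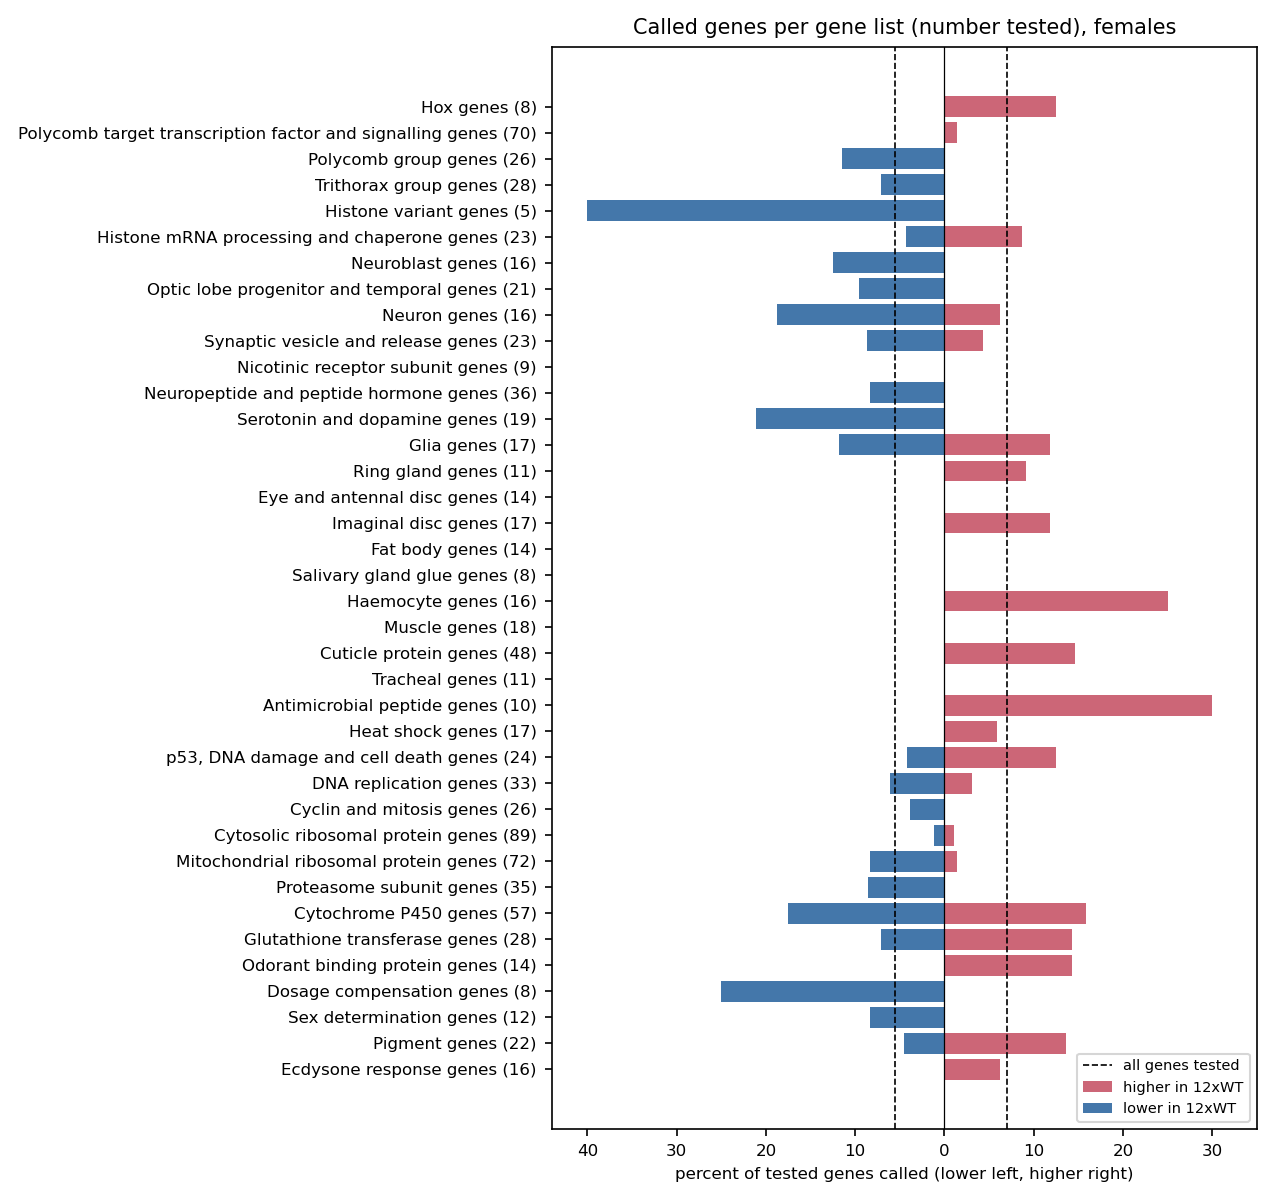
Percent of the tested genes of each of 38 gene lists called lower (blue, to the left) and higher (red, to the right) in 12xWT females, with the number tested in parentheses; dashed lines mark all genes tested, 5.57% lower and 7.04% higher. Short lists move by large steps: 2 of 5 histone variant genes and 3 of 10 antimicrobial peptide genes give the longest bars.

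The called genes were not spread evenly along the chromosomes. Per arm the share called higher was 9.36% on 2L and 9.08% on 2R, 6.13% on 3L, 5.50% on 3R and 5.42% on X, and the share called lower on these arms lay between 3.34% on 3R and 7.67% on 2R. On chromosome 4, with 96 tested genes, 2.08% were called higher and 1.04% lower. Windows of 1 Mb with at least 20 tested genes, 120 in all, had a median of 11.2% called and a range of 1.32% to 39.0%. The regions described next were looked for after the values were seen and are described without a test.

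The 2 longest runs of neighbouring genes with the same sign both lay on 3L and both were lower in 12xWT females. They bound a span of 490 kb (3L:6911999-7401671, dm6) with 60 tested genes, of which 37 were called lower, 61.7% against 5.57% of all genes. By edgeR 0 of the 60 were called higher, 0 at an unadjusted p under 0.05 and 0 by DESeq2. The 2 runs held 19 and 17 of these genes, with 16 and 11 of the lower calls. Their genes were chosen by a lower value in females and could not be called higher. The female counts of the span thus follow in part from how it was found. Of the 31 genes of the span with at least 20 CPM, 28 were called lower, and their median log2 fold change was -0.47, a ratio of 0.721, with a range of -0.67 to -0.09. The genes called have unlike functions. Dscam2, a neuronal adhesion molecule, stood at 1498 and 1334 CPM in yw against 919, 979 and 1079 CPM in 12xWT females (-0.54 ± 0.08). smid, an ATPase, stood at 413 and 393 against 291, 287 and 278 CPM (-0.52 ± 0.04), and akirin, a nuclear cofactor of transcription, at 467 and 456 against 331, 346 and 338 CPM (-0.47 ± 0.04). RpL18 (969 and 983 against 761, 721 and 693 CPM), msl-3 (37.0 and 35.8 against 27.6, 29.3 and 26.4 CPM), mRpL50, the insulator protein gene CTCF (-0.29) and Rint1 (-0.67) lie in the same span. The calls that RpL18, mRpL50 and msl-3 give their lists are thus calls of genes in this span. The part of their position in these calls was not tested. In the 500 kb before it 0 of 21 tested genes were called lower by edgeR (1 at an unadjusted p under 0.05, 0 by DESeq2) and 1 higher. In the 500 kb after it 0 of 37 were lower by edgeR (1 at an unadjusted p under 0.05, 1 by DESeq2) and 7 higher. In males, whose libraries were not used to find the span, 35 of the 60 genes were called lower and 0 higher, and the median of the 31 genes was -0.50.

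**Figure D5:**
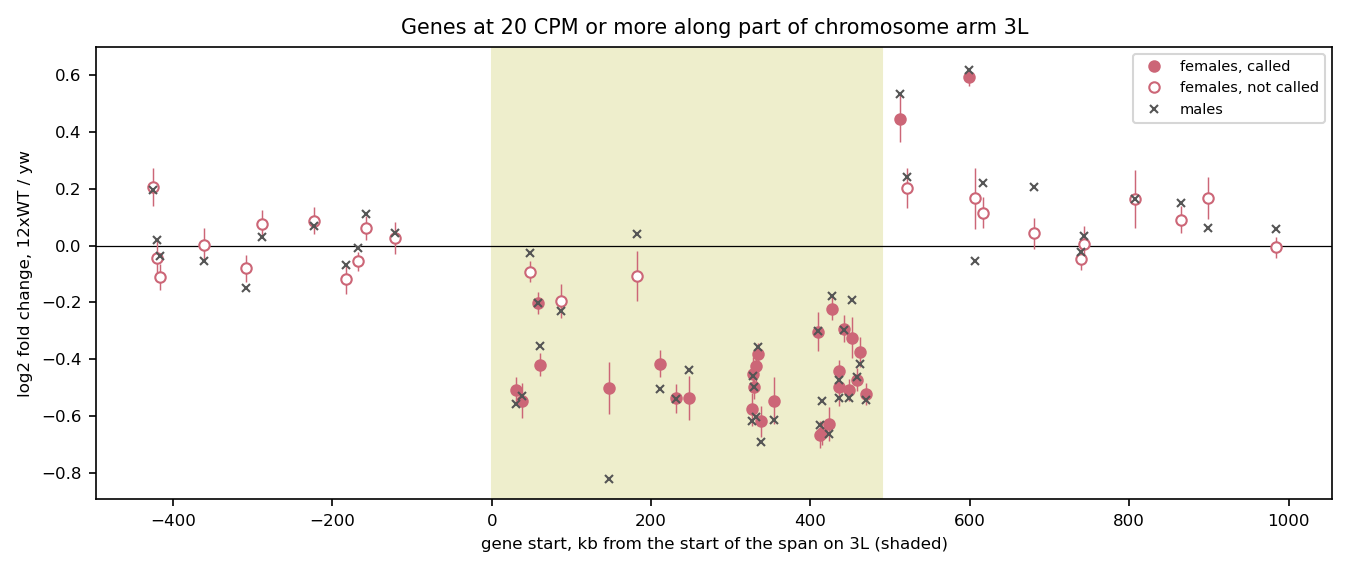
Log2 fold change of 12xWT over yw for genes with at least 20 CPM, by the distance of the gene's start from the start of the span on 3L (shaded, 490 kb) in kb, with 500 kb on either side; red circles are females with standard errors, filled where called, and crosses are males. Of 31 genes in the span 28 are called lower in females, and none of the 11 genes before it and the 12 after it is.

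The other 6 of the 8 longest runs held 13 to 15 genes and 1 to 7 calls each, and the 2 with the most calls held families of neighbouring genes. On 2R (7012254-7069896) 15 consecutive genes were higher, 6 of them called, in the cluster of Tsp42E tetraspanins, membrane proteins that organise signalling partners. Tsp42El stood at 2.52 and 3.44 CPM in yw against 8.94, 7.53 and 9.41 CPM in 12xWT females (1.51 ± 0.18, edgeR adjusted p = 0.000428). On 2L (13823980-13904661) 13 genes were lower, 7 called, among them CG33306 (-3.45), CG8997 (-3.56) and CG7916 (-3.10), all under 2 CPM in yw females; tam, Arpc1 and Orc5 of the same run had -0.05, -0.01 and -0.03. The remaining runs were 14 genes higher on 3L just after the span (4 called, mthl6 and CG7546 among them), 14 higher on 3R (3 called), 5 of them alpha-esterase genes, 14 lower on 2R (2 called), which held lola (-0.12) and psq (-0.16), and 13 lower on 2L (1 called), which held nAChRalpha6 (-0.17).

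Set beside the males, which share no library with the females, the genotype difference was similar in direction. Of 1406 genes called in females 1388 had the same sign in males, 1158 were called there too (82.4% of the female and 49.5% of the male calls) and 1157 of these in the same direction. In males 11.1% of genes were called higher and 9.91% lower, 21.0% in all. Across genes, which are not independent replicates and were fitted with one estimate of the spread, the log2 fold changes correlated with Pearson r = 0.823 and Spearman rho = 0.711. Of the 18 genes with opposite signs 15 lay on X, which held 1883 of the 11146 genes tested. CG32521 was the 1 called in both sexes (303.5 and 303 against 278, 273 and 281 CPM in females, -0.15; 0.13 in males). In all 18 the female change had the sign of the yw male minus yw female log2 difference, from -0.40 (CG32791) to 3.62 (CG14205). Choosing genes by opposite signs favours this. The link of these 18 genes, and of the likeness between the sexes, to the sex-linked signal of the 12xWT female libraries was not tested.

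A test of the difference between the female and the male effect called 0 of 11146 genes by edgeR, with 456 (4.09%) at an unadjusted p under 0.05, and DESeq2 called 11 of the 13540 genes it tested (0.0812%), 5 of them on X. The smallest edgeR adjusted p was 0.111, for baz, a polarity protein gene of neuroblasts on X. baz stood at 79.7 and 77.7 CPM in yw against 49.9, 47.6 and 48.5 CPM in 12xWT females (-0.72 ± 0.05), and had -1.25 in males. Sik2, a kinase (-0.65 in females, -1.16 in males), and CG43921 (-0.63 and -1.07), both also on X, followed with edgeR adjusted p = 0.138 each. In these 3 genes both sexes were called lower, and the female value was the smaller in size. DESeq2 called the difference for baz, Sik2, CG43921, CG32521, Hsp70Bb, Obp56d and msl-2 among the genes named here. Obp56d, an odorant-binding protein gene, had 2.54 in females and -2.86 in males at levels under 1 CPM (edgeR adjusted p = 0.321, DESeq2 adjusted p = 0.0314). Ubx had 2.17 in females and 1.99 in males.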

How the data were processed

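PolyA RNA of 10 libraries was sequenced; the authors aligned reads with STAR 2.7.7a and counted read pairs over exons with featureCounts (Subread 2.0.1) on dm6, per the submitters' processing notes and the file headers. The header's command sets neither a strand nor the counting of multiply placed reads. The deposited table holds raw counts per gene, 16727 genes with no row that names no gene; totals per library were 52.0 to 79.9 M. The 11146 genes that passed filterByExpr (edgeR 4.0.16, R 4.3.3; groups by genotype and sex) were fitted with TMM factors (0.985 to 1.02) and robust quasi-likelihood dispersion, with 1 mean per group over all 10 libraries, since 5 libraries alone leave few residual degrees of freedom. The contrast was 12xWT female minus yw female, and p-values were adjusted by Benjamini-Hochberg over all genes tested. The filter removed no more than 0.016% of the counts of any library. The biological coefficient of variation was 8.73%. The steps were checked on simulated counts.

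The female members, the gene lists and the rules for named genes were chosen with earlier results of these data known, so list counts and medians are descriptions. The genes named were the 10 higher and 10 lower with the largest fold change among called genes with groups that do not overlap and an average of 1 CPM or more where they are higher, the same at 20 CPM, members of the lists, the genotype and sex checks, and the 5 genes with the smallest p for the difference between the sexes. Intervals of ratios are exact binomial 95% intervals and cover counting error only, as do floors of 3 counts. Of the table's genes 5346 share exon sequence with another gene, and unstranded counting can move reads between them. Coordinates, on dm6, are those of the counting annotation, and 5 gene names that a spreadsheet had turned into dates were restored. FlyBase identifiers matched 12435 genes. The authors' deposited comparison over both sexes was not used here. No sequence is printed, since none was at hand. Alternatives were DESeq2 1.42.0, RLE factors, library size only, no filter, no robust estimation, the female libraries alone, a replicate block, a 2-fold requirement and leaving out each library in turn.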

Additional observations from a re-analysis of the deposited data

How the results depend on the processing

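Counts of called genes in females kept within 1.5 times of 785 higher and 621 lower with DESeq2 (857 and 667), RLE factors, library size only, no filter, no robust estimation and the female libraries alone (832 and 524). With a replicate block they were 568 and 401, and with a 2-fold requirement 291 and 113. Leaving out 1 library in turn gave 369 to 854 higher and 289 to 628 lower, the lowest without a yw female library; an arm with 1 library was taken to vary like the other groups. No pairing by replicate number was seen: deviations of female libraries with the same number correlated between -0.063 and 0.042, and over all groups between -0.17 and 0.10. The 2 yw libraries of a sex deviate from their mean as mirror images, so these values cannot decide whether numbers pair libraries. The difference between the sexes was called for 11 genes by DESeq2, 3 without the filter and 0 to 3 on leaving out 1 library. The summed histone RNA difference of -0.112 CPM ranged from -0.135 to -0.089 CPM on leaving out 1 library, and the summed Y-linked difference from 4.50 to 11.4 CPM. Of 137 called genes named or listed, 70 lost the call under at least 1 alternative other than the 2-fold requirement (32 under the replicate block, 17 in the female libraries alone, 6 by DESeq2, 24 and 25 without 12xWT female replicates 1 and 3), and 0 changed sign. Among uncalled Hox genes, on leaving out 1 female library, the log2 fold change ranged from -0.031 to 0.14 for lab, from -0.0038 to 0.054 for pb, from -0.095 to 0.074 for Dfd, from -0.048 to 0.035 for Scr and from -0.14 to 0.047 for Antp, and scaling by library size only gave 0.012 for Scr. The causes were not tested. At these depths values under about 0.06 CPM rest on 3 counts or fewer.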
